A study of Homo sapiens with 3 samples.

Results

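The 9 genes described here encode glycosyltransferases that build gangliosides and globosides, the glycolipids that carry sugar chains on ceramide at the cell surface. They were chosen by gene symbol: UGCG, B4GALT5, B4GALT6, A4GALT, ST3GAL5, ST8SIA1, B4GALNT1, B3GALT4 and ST3GAL2. All 9 were found among the 24424 genes of the deposited count table. The values compared below were known when the genes were chosen, so they are given as a description of the libraries, with no test.

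The study compared 3 stable populations of A375SM, a metastatic human melanoma line derived from A375, with 1 library each. Every population was infected with a lentiviral hairpin vector that carries a green fluorescent reporter, and reporter-positive cells were kept. The group called shPRAME carried a hairpin against PRAME (genotype label PRAME knockdown) and the group called shBAP1 a hairpin against BAP1 (BAP1 knockdown). The control, shEmpty, is labelled WT and is called a non-targeting hairpin in the series' design text, although its name reads as an empty vector. Each knockdown therefore rests on 1 hairpin population, and an effect of the hairpin cannot be told apart from an effect of its target. The populations were grown in the same serum-containing medium, and messenger RNA was read with a directional kit on bulk cells.

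Glycosphingolipid synthesis is a chain of single-sugar steps in the Golgi. UGCG adds glucose to ceramide, and B4GALT5 and B4GALT6, a pair of paralogs, both add galactose to give lactosylceramide. From lactosylceramide the routes part: A4GALT makes globotriaosylceramide (Gb3), the first lipid of the globo series, and ST3GAL5 makes the ganglioside GM3. ST8SIA1 turns GM3 into GD3, B4GALNT1 makes GM2 from GM3 and GD2 from GD3, B3GALT4 extends these to GM1 and GD1b, and ST3GAL2 adds a terminal sialic acid to such chains. Melanoma is known for GD3 and GD2, which have served as targets of antibodies.

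The promoters of the 3 enzymes that differed by the largest fold from the control and for which the RefSeq table (GRCh38.p14) held a sequence are shown first, since the results turn on these genes. Each runs 5′ to 3′ from 250 bases before the start site to 50 bases after it, in lower case, with every match to the GC box GGGCGG on either strand in capitals.
A4GALT, chr22:42720821-42721120, minus strand: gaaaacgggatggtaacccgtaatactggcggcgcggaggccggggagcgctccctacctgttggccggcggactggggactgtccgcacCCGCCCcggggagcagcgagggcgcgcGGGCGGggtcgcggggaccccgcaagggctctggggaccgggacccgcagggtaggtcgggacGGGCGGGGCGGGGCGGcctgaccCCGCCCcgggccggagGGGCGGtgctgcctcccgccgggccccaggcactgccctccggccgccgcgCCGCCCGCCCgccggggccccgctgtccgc
ST8SIA1, chr12:22334658-22334957, minus strand: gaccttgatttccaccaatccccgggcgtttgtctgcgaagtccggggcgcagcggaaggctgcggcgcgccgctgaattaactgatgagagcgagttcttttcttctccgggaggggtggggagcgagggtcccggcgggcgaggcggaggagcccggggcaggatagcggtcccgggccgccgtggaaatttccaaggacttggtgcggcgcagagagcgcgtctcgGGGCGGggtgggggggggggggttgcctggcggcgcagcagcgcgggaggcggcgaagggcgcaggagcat
B4GALT5, chr20:49713829-49714128, minus strand: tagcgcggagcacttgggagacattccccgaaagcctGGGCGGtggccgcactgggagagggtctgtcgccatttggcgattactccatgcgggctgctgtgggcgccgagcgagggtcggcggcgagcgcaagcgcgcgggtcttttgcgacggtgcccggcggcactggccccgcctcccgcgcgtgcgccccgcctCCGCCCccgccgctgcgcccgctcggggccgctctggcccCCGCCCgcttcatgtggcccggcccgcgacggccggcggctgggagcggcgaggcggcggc
The A4GALT window held 9 matches, overlapping ones counted separately, against 1 in ST8SIA1 and 3 in B4GALT5. Of 34796 distinct promoters of this length in the table, 44.9% held at least 1 match, 15.8% at least 3 and 0.414% at least 9. The A4GALT window also held 43 CG pairs and that of B4GALT5 47, more than 95.01% and 97.6% of the promoters, and ST8SIA1 held 35 (more than 85.9%). CATGTG, the core of the M-box, was searched on both strands and matched once in B4GALT5 (11.1% of promoters hold it). The symmetric E-box (CACGTG) matched none of these 3 windows and is held by 7.20% of promoters. The TATA box (TATAAA, 11.6% of promoters) and the AP-1 site (TGANTCA, 7.72%), also searched on both strands, matched none of them either. RefSeq lists a second A4GALT start whose window has 1 GC box and 6 CG pairs. Which start was used in these cells was not analysed here. UGCG and ST3GAL5 also matched the table. The UGCG window held 3 GC boxes and 48 CG pairs, more than 98.0% of the promoters. The ST3GAL5 windows held 0 to 4 GC boxes and 3 to 48 CG pairs. B4GALT6, B4GALNT1, B3GALT4 and ST3GAL2 have no entry. The files use another build (hg19), so these coordinates belong to the RefSeq table alone.

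Library totals ran from 14181829 to 19430130 counts. Levels are given as CPM, counts divided by the size of the library, as scaled by the trimmed mean of M values (TMM), each with an exact 95% counting interval. A gene was measured where its mean count over the libraries was at least 50, which 11956 genes met. A call of higher or lower required a 2-fold difference or more in CPM, with an exact 95% counting interval of the ratio lying wholly on that side of 1. With 1 library per group there is no replicate check, the calls compare libraries and not conditions, and the intervals cover counting error only. In bulk RNA, fewer cells with a transcript and less of it per cell cannot be told apart. PRAME stood at 32.9% of the control in shPRAME and BAP1 at 35.2% in shBAP1. Of the 12 melanoma markers, SOX10 (5442 to 12019 counts), MITF (2088 to 5807) and CSPG4 (6636 to 56595) were abundant in all 3 libraries. The pigment markers MLANA (3 to 19 counts) and PMEL (6 to 34) were near 0 in all 3. TYR (4, 573 and 0 counts in shEmpty, shBAP1 and shPRAME), TYRP1 (0, 1037 and 1) and DCT (192, 1668 and 6) were high in shBAP1 alone. The part of this pigment-gene difference in the values below was not tested. Summed over its list, the melanoma markers reached 1941 to 4566 CPM, against 34.6 to 51.1 for 6 fibroblast, 27.6 to 53.8 for 6 keratinocyte, 12.3 to 79.2 for 5 endothelial and 51.4 to 150.1 for 6 immune markers. KRT10, KDR and CD68 made up nearly all of the last 3 sums, while KRT1, CDH5 and CD3E had no count in any library. CSPG4 alone gave 24256 of the 48218 melanoma marker counts in shEmpty, 6636 of 28808 in shBAP1 and 56595 of 83490 in shPRAME.

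The largest differences lay in the enzymes that open the globo series and make GD3, and in the paralogs that make lactosylceramide. In shBAP1, A4GALT was 12.7-fold lower than in shEmpty and B4GALT5 2.60-fold lower. In shPRAME, ST8SIA1 was 14.3-fold lower, B4GALT6 2.46-fold lower and A4GALT 3.01-fold higher. Of the 9 members, 8 were measured. 3 of these were called in shPRAME, 1 higher and 2 lower, where 19.3% of all measured genes were called (10.2% higher and 9.08% lower). In shBAP1 2 were called, both lower, beside 14.1% of all measured genes (5.53% higher and 8.56% lower). Scaling by total count, which moved the median of all genes there by 0.12 (log2), gave 829 higher and 837 lower in place of 661 and 1024, and the calls of the members held. The median log2 ratio of the 8 was -0.27 in shPRAME and -0.24 in shBAP1, next to -0.06 and -0.03 for all measured genes. Both comparisons share the control library. B3GALT4 was not measured.

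**Figure D1:**
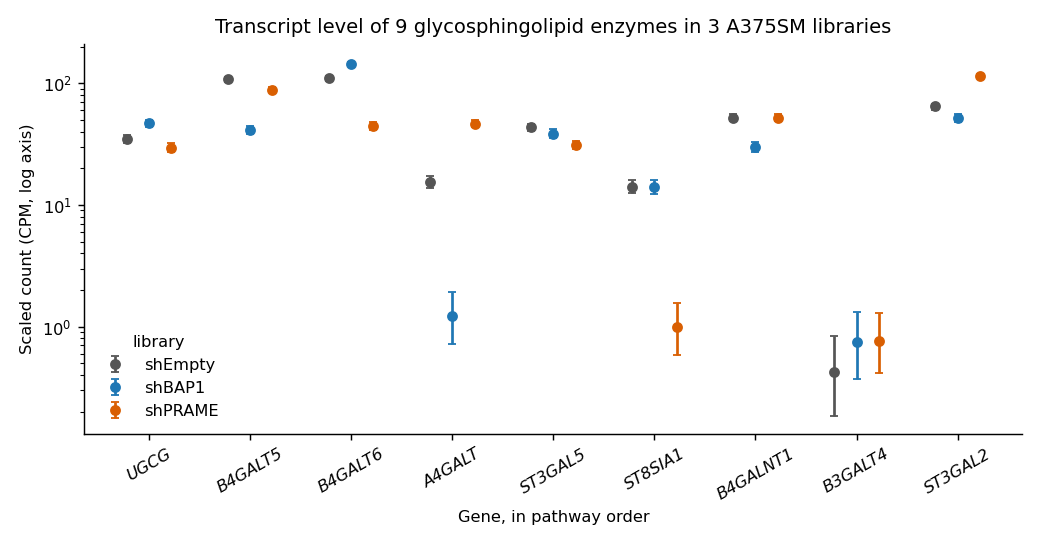
Scaled count (CPM, log axis) of the 9 enzymes in pathway order, 1 point per library, with exact 95% counting intervals as bars. A4GALT is lowest in shBAP1 and highest in shPRAME, ST8SIA1 is low in shPRAME, and B3GALT4 lies below 1 CPM in all 3 libraries.

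UGCG, the glucosylceramide synthase that commits ceramide to this pathway, had 658 counts in shEmpty, 694 in shBAP1 and 542 in shPRAME. These are 35.1 CPM (32.5 to 37.9), 46.7 CPM (43.3 to 50.4) and 29.6 CPM (27.2 to 32.2). The counting intervals of the 3 libraries did not overlap, yet the span was small, with UGCG 1.33-fold higher in shBAP1 (1.19 to 1.48) and 1.18-fold lower in shPRAME (1.06 to 1.33). Neither ratio passed the size rule.

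Each lactosylceramide synthase was called lower in a different knockdown. B4GALT5 was at 107.9 CPM in shEmpty (2021 counts), 41.4 CPM in shBAP1 (615) and 88.4 CPM in shPRAME (1616). The shBAP1 library was low, at 38.4% of the control (35.04% to 42.1%), and the shPRAME ratio of 1.22-fold downward did not pass. B4GALT6 was at 109.7 CPM in shEmpty (2055 counts), 144 CPM in shBAP1 (2140) and 44.6 CPM in shPRAME (815). Here shPRAME was the low library, at 40.6% of the control (37.4% to 44.1%), and shBAP1 lay 1.31-fold above it (1.24 to 1.40) without passing. Within each library, unscaled for gene length, B4GALT6 held 50.4% of the counts of the pair in shEmpty (Wilson 95% interval 48.9% to 52.0%). Its share was 77.7% in shBAP1 (76.1% to 79.2%) and 33.5% in shPRAME (31.7% to 35.4%). The ratio of B4GALT6 to B4GALT5 was thus 3.42 times that of the control in shBAP1 (3.07 to 3.82) and 0.496 times in shPRAME (0.446 to 0.551), a measure free of library scaling and gene length. Per kilobase of exon the sum of both was 51.0 CPM per kb in shEmpty, 45.8 in shBAP1 and 30.2 in shPRAME.

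B4GALT6 lies on chromosome 18, whose measured genes were low as a group in both knockdowns. The median log2 ratio of its 161 measured genes was -0.68 in shPRAME and -0.62 in shBAP1, the lowest of the 22 autosomes in each, and 29.2% and 27.3% of them were called lower. Next lowest were chromosome 13 in shPRAME (-0.63) and chromosome 8 in shBAP1 (-0.54). Relative to its chromosome, B4GALT6 had a log2 ratio of -0.62 in shPRAME, which does not pass the size rule, in place of -1.30. In shBAP1 the value became 1.02, which passes as higher, in place of 0.39. The part of the chromosome-wide difference in the B4GALT6 values was not tested. Between the knockdowns the chromosome 18 median was -0.07, and B4GALT6 was 3.23-fold lower in shPRAME than in shBAP1 (2.98 to 3.51). The other 7 measured members lie on chromosomes with medians from -0.35 to 0.17 in these comparisons with the control, and none of their calls changed when the medians were subtracted.

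**Figure D2:**
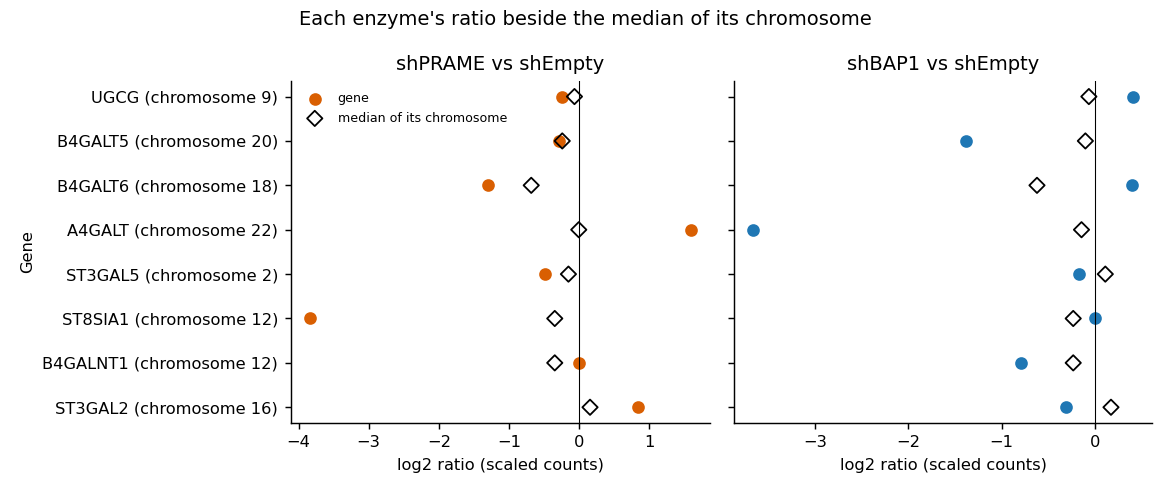
Log2 ratio to shEmpty of the 8 measured enzymes (filled circles) beside the median over the measured genes of the same chromosome (open diamonds), for shPRAME (left) and shBAP1 (right). Chromosome 18, which holds B4GALT6, has a median of -0.68 in shPRAME and -0.62 in shBAP1.

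A4GALT, the Gb3 synthase that opens the globo series, had the widest range of the members over the 3 libraries, 5.26 on the log2 scale. It had 289 counts in shEmpty, 18 in shBAP1 and 848 in shPRAME, or 15.4 CPM (13.7 to 17.3), 1.21 CPM (0.719 to 1.92) and 46.4 CPM (43.3 to 49.6). The 3 levels were separate, with the control in the middle. A4GALT was 12.7-fold lower than the control in shBAP1 (7.91 to 21.8), at rank 86 from the bottom of the measured genes. In shPRAME it was 3.01-fold higher (2.63 to 3.45), at rank 593 from the top. Between the knockdowns the difference was 38.3-fold (24.1 to 64.9). Its protein-coding neighbours on chromosome 22 were CYB5R3 (4502, 2111 and 5039 counts in shEmpty, shBAP1 and shPRAME) and ARFGAP3 (1138, 632 and 2332). Both were also lowest in shBAP1 and highest in shPRAME. ARFGAP3 passed as higher in shPRAME, with a log2 ratio of 1.07, and neither neighbour passed in shBAP1 (-0.76 for CYB5R3 and -0.51 for ARFGAP3).

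3 measured genes had a pair of log2 ratios to the control closest to that of A4GALT, by Euclidean distance over the 2 ratios. They were LPPR1 (distance 0.08), PPM1J (0.14) and NRCAM, a neuronal cell adhesion molecule (0.17). LPPR1 had 48, 3 and 133 counts in shEmpty, shBAP1 and shPRAME, so that its 12.7-fold lower value in shBAP1 had an interval of 4.09 to 63.6. PPM1J had 53, 3 and 156, with a 13.997-fold lower value in shBAP1 (4.54 to 70.0). NRCAM, with 2091, 116 and 5996 counts, was 14.3-fold lower in shBAP1 (11.8 to 17.4) and 2.94-fold higher in shPRAME (2.80 to 3.09). This likeness rests on 3 libraries, and the genes were picked as the nearest among the 11956 measured. LPPR1 and PPM1J met the count minimum only through shPRAME, where they are high, so the filter partly set their pattern.

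ST3GAL5, the GM3 synthase that competes with A4GALT for lactosylceramide, was at 43.5 CPM in shEmpty (815 counts), 38.6 CPM in shBAP1 (573) and 31.2 CPM in shPRAME (570). It was 1.13-fold below the control in shBAP1 (1.01 to 1.26) and 1.40-fold below in shPRAME (1.25 to 1.56), and neither passed. Of the counts of A4GALT and ST3GAL5 together, A4GALT held 26.2% in shEmpty (23.7% to 28.9%), 3.05% in shBAP1 (1.94% to 4.76%) and 59.8% in shPRAME (57.2% to 62.3%). These shares are not scaled by gene length, and ST3GAL5 has the longer exons. Per kilobase of exon in shEmpty, A4GALT stood at 5.96 CPM and ST3GAL5 at 7.57. With the full annotation these were 4.53 and 2.67, so their order in the control depends on the gene models. The ratio of the Gb3 enzyme to the GM3 enzyme was 11.3-fold below that of the control in shBAP1 (6.91 to 19.5) and 4.196 times that of the control in shPRAME (3.52 to 5.00). ST3GAL5 set against UGCG moved less, at 0.667 times the control ratio in shBAP1 (0.572 to 0.777) and 0.849 times in shPRAME (0.724 to 0.996).

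**Figure D3:**
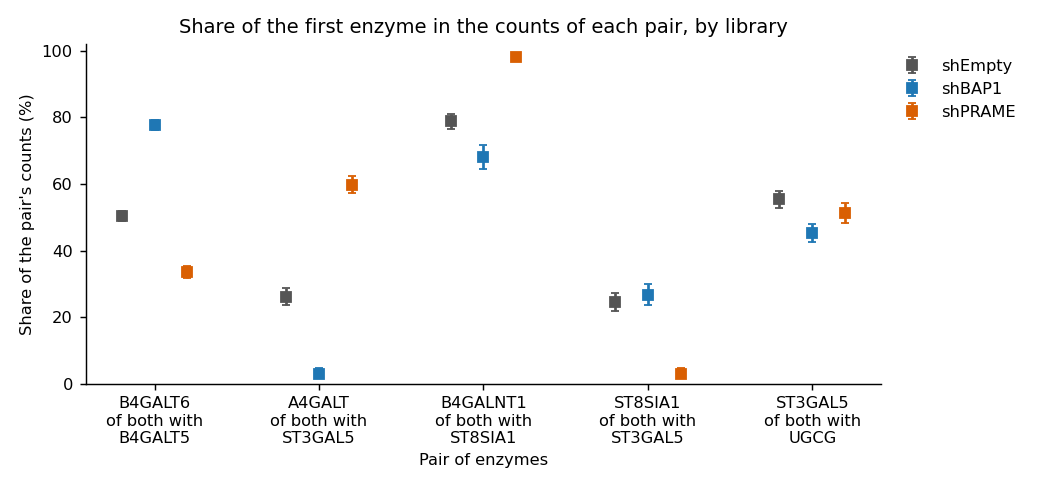
Share of the first-named enzyme in the summed counts of each of 5 pairs (percent), 1 square per library, with Wilson 95% intervals as bars. A4GALT takes 3.05% of its pair with ST3GAL5 in shBAP1 and 59.8% in shPRAME, and ST8SIA1 takes 3.06% of its pair with ST3GAL5 in shPRAME.

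ST8SIA1, the GD3 synthase, had 264 counts in shEmpty, 209 in shBAP1 and 18 in shPRAME. Its level was 14.1 CPM in the first 2 libraries (12.4 to 15.9 in shEmpty and 12.2 to 16.1 in shBAP1) and 0.984 CPM in shPRAME (0.583 to 1.56). The shPRAME library alone was low, 14.3-fold below the control (8.88 to 24.5) and at rank 36 from the bottom of the measured genes. The ratio in shBAP1 was 99.9% of the control (82.9% to 120.3%), so no difference was detectable there at this depth. ST8SIA1 over ST3GAL5, the GD3 step against the GM3 step, was 10.3-fold below the control ratio in shPRAME (6.27 to 17.8) and 1.13 times it in shBAP1 (0.907 to 1.40). The neighbours of ST8SIA1 on chromosome 12, ABCC9 (423, 416 and 544 counts in shEmpty, shBAP1 and shPRAME) and C2CD5 (1153, 752 and 1078), passed in neither comparison. CMAS, which overlaps ST8SIA1 on the opposite strand without shared exons, had 1409, 1032 and 830 counts. RNU1-149P, a small nuclear RNA gene on the same strand, does overlap exons of ST8SIA1 and is not in the count table.

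B4GALNT1, which makes GM2 and GD2, was at 52.3 CPM in shEmpty (980 counts), 30.1 CPM in shBAP1 (447) and 52.3 CPM in shPRAME (956). It was at 57.6% of the control in shBAP1 (51.4% to 64.4%), short of the 2-fold limit, and at 100.0% in shPRAME (91.4% to 109.4%). The sign of the latter changed with the scaling. B4GALNT1 over ST8SIA1, the enzymes that both act on GM3, was 14.3 times the control ratio in shPRAME (8.78 to 24.7), and 0.576 times in shBAP1 (0.463 to 0.718). Antisense genes on the opposite strand overlap exons of B4GALT6 (AC017100.1) and ST3GAL2 (AC012184.1). Neither antisense gene is in the count table. Exons of SLC26A10 on the opposite strand overlap those of B4GALNT1. SLC26A10 had 54, 30 and 77 counts in shEmpty, shBAP1 and shPRAME, and whether counting used strand is not given in the sources used here.

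B3GALT4 and ST3GAL2 act on the later steps. B3GALT4, the GM1 synthase, had 8 counts in shEmpty, 11 in shBAP1 and 14 in shPRAME, or 0.427 CPM (0.184 to 0.841), 0.741 CPM (0.370 to 1.33) and 0.766 CPM (0.419 to 1.28). The intervals of all 3 libraries overlapped, and no difference was detectable at this depth. ST3GAL2, which adds terminal sialic acid to chains such as those of GD1a, was at 64.4 CPM in shEmpty (1207 counts), 51.9 CPM in shBAP1 (771) and 115 CPM in shPRAME (2104). It was 1.79-fold above the control in shPRAME (1.66 to 1.92), short of the 2-fold limit, and 1.24-fold below in shBAP1 (1.13 to 1.36).

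**Figure D4:**
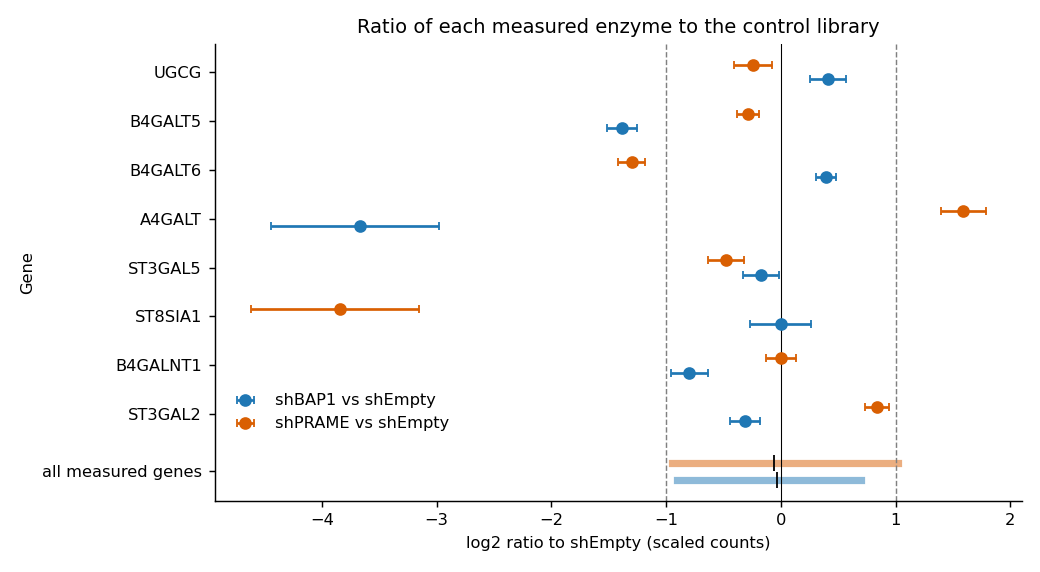
Log2 ratio to shEmpty of the 8 measured enzymes with exact 95% counting intervals, for shBAP1 (blue) and shPRAME (orange), with dashed lines at 2-fold. The thick lines at the bottom span the 10th to 90th percentile of all measured genes (-0.95 to 1.02 in shPRAME and -0.90 to 0.69 in shBAP1) and the ticks mark their medians.

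Set directly against each other, shPRAME and shBAP1 gave calls for 5 of the 8 measured members, beside calls for 25.1% of all measured genes (14.2% higher and 10.9% lower in shPRAME). A4GALT, ST3GAL2 (2.22-fold, 2.04 to 2.41) and B4GALT5 (2.13-fold, 1.94 to 2.35) were called higher in shPRAME. ST8SIA1 (14.3-fold, 8.83 to 24.6) and B4GALT6 were called lower. B4GALNT1 was 1.74-fold above shBAP1 in shPRAME (1.55 to 1.95), UGCG 1.58-fold below (1.41 to 1.77) and ST3GAL5 1.24-fold below (1.10 to 1.39), and none of these passed.

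Compared per kilobase of merged exons (GENCODE 29, basic annotation), the order of the members differed between libraries. In shEmpty the lactosylceramide synthases led, with B4GALT6 at 28.2 CPM per kb and B4GALT5 at 22.8, followed by B4GALNT1 (12.3) and UGCG (8.76). ST3GAL5 (7.57), ST3GAL2 (7.15) and A4GALT (5.96) came next, and ST8SIA1 (1.29) and B3GALT4 (0.252) were last. The intervals of UGCG and ST3GAL5 overlapped, as did those of ST3GAL5 and ST3GAL2. In shBAP1 B4GALT6 led at 37.0 CPM per kb, ahead of UGCG (11.7), B4GALT5 (8.77), B4GALNT1 (7.09), ST3GAL5 (6.72), ST3GAL2 (5.76) and ST8SIA1 (1.29). A4GALT (0.469) and B3GALT4 (0.437) ended that order with overlapping intervals, and those of B4GALNT1, ST3GAL5 and ST3GAL2 overlapped from each to the next. In shPRAME B4GALT5 (18.7 CPM per kb) and A4GALT (17.9) led with overlapping intervals. ST3GAL2 (12.8), B4GALNT1 (12.3) and B4GALT6 (11.5) followed, each overlapping the next, then UGCG (7.40), ST3GAL5 (5.43), B3GALT4 (0.452) and ST8SIA1 (0.0901). A4GALT thus ranked 7th, 8th and 2nd of 9 in shEmpty, shBAP1 and shPRAME, and ST8SIA1 8th, 7th and 9th. With merged exons of the full annotation B4GALT5 (22.8 CPM per kb) came before B4GALT6 (20.7) in shEmpty, followed by UGCG, ST3GAL2, B4GALNT1, A4GALT and ST3GAL5, so the order of close neighbours depends on the gene models.

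Around these 9 enzymes, 67 further genes of glycosphingolipid metabolism were listed by role, of which 49 were measured. In shPRAME 7 of the 49 were called (4 higher and 3 lower) and in shBAP1 6 (2 higher and 4 lower). These shares were 14.3% and 12.2%, beside 19.3% and 14.1% over all measured genes. Under total-count and upper-quartile scaling 9 were called in shPRAME, beside 19.2% and 19.4% of all measured genes. In shBAP1 these scalings called 6 and 5, beside 13.9% of all measured genes in each. Ceramide supply, from serine palmitoyltransferase to the ceramide transporters, had 12 of 17 genes measured and none called in shPRAME (median log2 ratio -0.11). In shBAP1 the ceramide synthase CERS6 was 2.52-fold lower (2.24 to 2.85), the only one of the 12 called (median -0.23). KDSR, the reductase of the second step, lies on chromosome 18 like B4GALT6 and had log2 ratios of -0.92 in shPRAME and -0.78 in shBAP1, or -0.24 and -0.16 relative to its chromosome. DEGS1, which inserts the double bond of ceramide, had -0.88 and -0.06. All 8 genes of sugar nucleotide supply were measured and none was called in either knockdown (medians -0.18 and 0.11). Closest to the limit was GNE, the first enzyme of sialic acid synthesis, 1.98-fold above the control in shPRAME (1.84 to 2.13) with 1118 counts in shEmpty and 2164 in shPRAME. It passed under each of the 3 other scalings. SLC35A1, the Golgi transporter of CMP-sialic acid, was 1.87-fold above the control in shBAP1 (1.59 to 2.22) and passed under total-count scaling. Its log2 ratio there was 0.91, or 0.50 relative to its chromosome, 6. CMAS, which makes CMP-sialic acid, was 1.66-fold below the control in shPRAME (1.52 to 1.81).

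The list of other sialyltransferases has 11 genes, among them the acetyltransferase CASD1, and 9 were measured. In shPRAME 2 were called higher and 2 lower (median 0.36), where 19.3% of all measured genes were called. In shBAP1 1 was higher and 2 lower (median -0.06), beside 14.1% of all measured genes. Whether this list differs from other genes was not tested. ST8SIA5, which adds sialic acid to complex gangliosides, had 2558 counts in shEmpty, 189 in shBAP1 and 3585 in shPRAME. It was 10.7-fold lower in shBAP1 (9.25 to 12.5) and 1.44-fold above the control in shPRAME (1.36 to 1.51), on chromosome 18, with log2 ratios relative to that chromosome of -2.80 and 1.21. ST3GAL6 had 341, 793 and 67 counts in the same order, 2.94-fold higher in shBAP1 (2.58 to 3.34) and 4.97-fold lower in shPRAME (3.81 to 6.55). ST6GALNAC3 had 762, 234 and 201 counts and was lower in both, 2.58-fold in shBAP1 (2.23 to 3) and 3.70-fold in shPRAME (3.16 to 4.34). Also called in shPRAME, and named after their values were seen, were ST3GAL1 (2.52-fold higher, 2.40 to 2.63) and CASD1 (2.22-fold higher, 1.96 to 2.51).

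The remaining branches were sparse. Of 11 genes of the globo, lacto and neolacto branches only 5 were measured, none called in shPRAME (median 0.20) and 1 lower in shBAP1 (median -0.04). That gene was B3GNT5, which opens the lacto and neolacto series from lactosylceramide, with 744, 285 and 687 counts in shEmpty, shBAP1 and shPRAME. It was 2.07-fold lower in shBAP1 (1.80 to 2.38), a call that ended under total-count and upper-quartile scaling and with the whole interval required beyond 2-fold. B4GALT2 and B4GALT3 had log2 ratios between -0.49 and 0.41. Globo enzymes that act after A4GALT, named after their values were seen, were near 0. B3GALNT1, the globoside (Gb4) synthase, had 1, 11 and 15 counts, GBGT1 3, 12 and 8, and B3GALT5 0 in every library. UGT8, which makes galactosylceramide in place of glucosylceramide, had 412, 369 and 127 counts and was 3.17-fold lower in shPRAME (2.59 to 3.89). Of 18 breakdown genes 14 were measured. In shPRAME GALC (galactosylceramidase, 252 to 619 counts, 2.52-fold) and ARSA (arylsulfatase A, 335 to 783 counts, 2.40-fold) were higher, with a list median of 0.15. In shBAP1 the lysosomal sialidase NEU1 was 2.04-fold higher (1.81 to 2.30), with 448 counts in shEmpty and 723 in shBAP1 and a list median of 0.17. That call ended with a pseudocount of 1 CPM and where the whole interval had to lie beyond 2-fold. The log2 ratio of NEU1 relative to its chromosome, also 6, was 0.62.

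**Figure D5:**
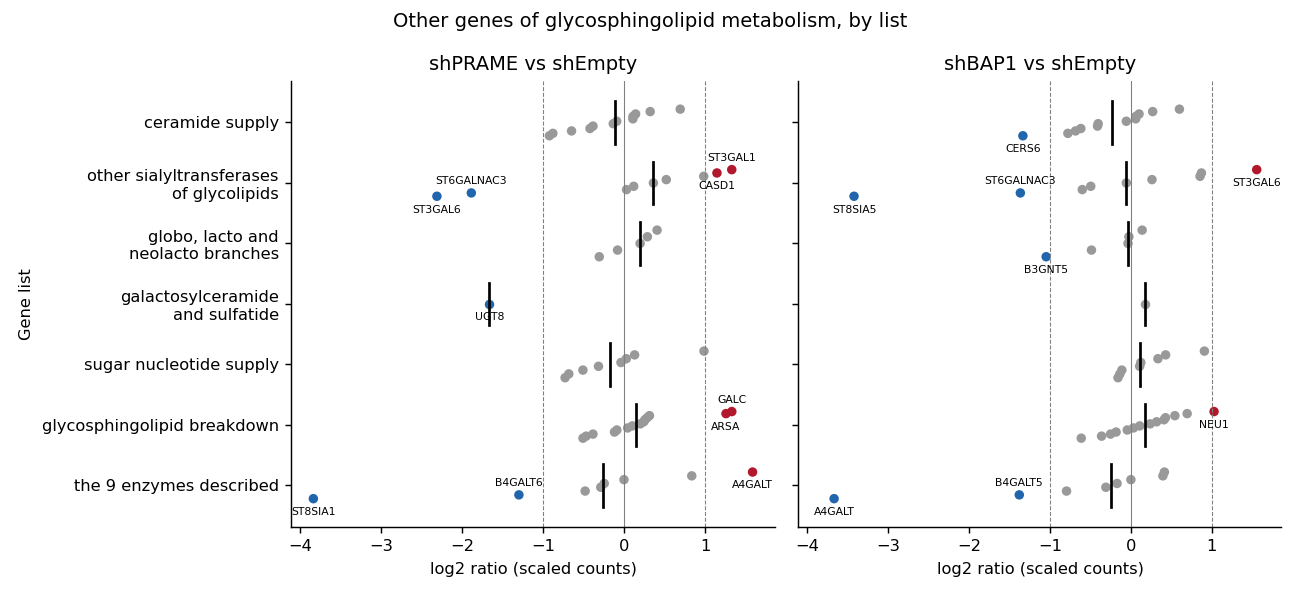
Log2 ratio to shEmpty of every measured gene in 6 lists of glycosphingolipid metabolism, for shPRAME (left) and shBAP1 (right). The row of the 9 enzymes described holds the 8 measured ones, without B3GALT4. Red points were called higher, blue points lower and grey points neither, the black bar is the list's median, and dashed lines mark 2-fold. ST8SIA5 and A4GALT lie at -3.42 and -3.67 in shBAP1.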

How the data were processed

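RNA was measured in 1 library for each of 3 A375SM populations. The authors deposited a table of raw read counts per gene, in which every row names a gene. The assembly hg19 (GRCh37) and the tools TopHat, Cufflinks, edgeR and FastQC are named, without their roles, per the submitters' processing notes. What counted the reads, and on which annotation, is not given in the sources used here.

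TMM factors over the 3 libraries came from edgeR 4.0.16 under R 4.3.3. Log2 ratios used no pseudocount, and a count of 0 was set to a floor of 3 counts. Ratio intervals come from the conditional binomial distribution, level intervals from the Poisson distribution, and intervals of ratios of ratios from the conditional odds ratio (scipy 1.17.1). The procedure was tested on simulated data with counting error alone, so that test does not cover variation between populations. Named genes were the 9 members, PRAME and BAP1, up to 3 measured genes per list with the largest ratio to the control, and the 3 nearest patterns to the member of widest range. Members and lists were chosen with earlier results of these data known. Chromosomes and exon lengths came from GENCODE 29 (GRCh38), matched by symbol for 95.3% of measured genes, for grouping and lengths only. Alternatives were other scalings (DESeq2 1.42.0 among them), count minima, fold limits, a stricter interval and a pseudocount of 1 CPM. Chromosome medians and the full annotation were added after the data were seen.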

Additional observations from a re-analysis of the deposited data

How the results depend on the processing

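No paired analysis was possible because each group is 1 library, and none could be left out. Every call of a member kept its direction under total-count, upper-quartile and DESeq2 scaling, under each count minimum that kept the gene, and with a pseudocount of 1 CPM. ST8SIA1 is not measured at a mean count of 200. Requiring the whole interval beyond 2-fold ended 1 member call, B4GALT5 in shPRAME against shBAP1. A fold limit of 3 left 2 members called in shPRAME, where B4GALT6 lost its call, 1 in shBAP1 (A4GALT) and 3 in the direct comparison. From the lists of further genes it left 3 in shPRAME and 1 in shBAP1. Of all measured genes it called 8.29% in shPRAME, 6.51% in shBAP1 and 11.4% in the direct comparison. A limit of 1.5 called 4, 3 and 7 members in shPRAME, shBAP1 and the direct comparison. Over all measured genes this limit called 41.0%, 30.5% and 48.1% in the same order. It called 15 of the 49 measured further genes in shPRAME, 16 in shBAP1 and 23 in the direct comparison, against 7, 6 and 4 at 2-fold. Without a count minimum 10 further genes were called in shBAP1, beside 15.4% of the 19528 genes then measured. The pseudocount moved the log2 ratio of A4GALT in shBAP1 to -2.89 and that of ST8SIA1 in shPRAME to -2.93. Exon lengths from the full annotation put A4GALT at rank 6 of the members in shEmpty and changed no other rank of A4GALT or ST8SIA1. They put B4GALT5 before B4GALT6 in shEmpty and moved B4GALNT1 from rank 3 to 5, ST3GAL5 from 5 to 7, ST3GAL2 from 6 to 4 and UGCG from 4 to 3. Depth limits B3GALT4, and the low levels of A4GALT in shBAP1 and ST8SIA1 in shPRAME rest on 18 counts each.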
